A study of Mus musculus with 6 samples.

Results

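Circular RNAs that the deposited tables list only by a database number, with an identifier that begins with mmu_circ_, made up 1989 of the 2246 circRNAs measured in mouse hippocampus. The other 257 are listed by genome coordinates. Members were taken by the form of the identifier alone, with earlier results of these data known. The deposited tables themselves hold no circle under 8 reads in all. The series holds 6 libraries of hippocampus taken at 6 months of age. Of these, 3 are labelled wild type (WT) and 3 are labelled APP/PS1, mice that the labels describe as expressing the APP695swe and PS1-dE9 mutant transgenes. Neither the promoter that drives the transgenes, nor the strain background, nor whether each library is a single animal is given in the sources used here, and p-values therefore describe variation among the 6 libraries, part or all of which could be technical.

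A circular RNA forms when the splicing machinery joins the end of an exon back to the start of the same or an earlier exon, which leaves a closed ring with no free ends. Without ends the ring is resistant to exonucleases and tends to outlive the linear messenger RNA of the same gene. Brain is known as a tissue rich in circRNAs, many of them from genes of synaptic proteins, and reads that cross the back-splice junction are what distinguishes a circle from the linear transcript. The tables used here pair no numbered circle with a gene, a position or a sequence, so each is described by its number and its reads, and no host gene or sequence is given. Because circle lengths are unknown here, levels are reads or CPM (reads scaled to 1000000 circRNA reads in each library) and are not corrected for length.

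Each library held between 13998 and 19584 circRNA reads, lowest in WT replicate 1. App, the amyloid precursor protein gene, contradicted 2 of the labels, 1 per genotype. WT replicate 3 had 145.6 FPKM of App, where the other WT libraries had 69.8 and 68.5, and APP/PS1 replicate 2 had 71.0 FPKM, where the others of that label had 153.1 and 166.2. Prnp, the prion protein gene, split in the same way, at 181 to 199 FPKM in the 3 libraries of low App and 457 to 472 in the 3 of high App. Groups are therefore named by label, and comparisons were repeated in the 4 libraries without these 2. All 4 dentate granule, 3 CA1 and 3 CA2 and CA3 neuron markers were listed in every library, Calb1 for example at 13.8 to 23.3 FPKM. Among markers of other tissue, Ttr of the choroid plexus stood at 806 to 1321 FPKM and the cerebellar marker Cbln3 at no more than 1.18 FPKM. The summed dentate granule markers were 54.1 to 73.0 FPKM in WT and 45.9 to 51.1 in APP/PS1 libraries. The summed choroid plexus markers were 821 to 1164 FPKM in WT and 1068 to 1343 in APP/PS1 libraries, and their part in the circRNA values was not tested.

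Numbered circles carried most circRNA reads in every library. They took 91.3% of circRNA reads in WT replicate 1 (exact 95% binomial interval 90.8 to 91.7), 91.7% in WT replicate 2 (91.3 to 92.1) and 91.9% in WT replicate 3 (91.5 to 92.3). In the APP/PS1 libraries the share was 92.7% in replicate 1 (92.3 to 93.0), 92.5% in replicate 2 (92.1 to 92.9) and 91.8% in replicate 3 (91.4 to 92.2). These intervals, like the floors given later, cover counting error only. The share overlapped between the labels, at 91.6% ± 0.339 (SD, n = 3) in WT and 92.3% ± 0.477 in APP/PS1, a difference of 0.677 percentage points (exact two-sided permutation p = 0.2, where 3 against 3 libraries cannot go below 0.1). In reads, the numbered circles summed to 12777, 16366 and 17346 in WT replicates 1 to 3 and to 18147, 16715 and 17849 in APP/PS1 replicates 1 to 3 (exact two-sided permutation p = 0.2). WT replicate 1 stood lowest, and the other 5 lay between 16366 and 18147.

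Most numbered circles were seen with only a few reads. The median circle had a mean of 4.5 reads per library, the middle 50 percent ran from 3.0 to 8.17, and the lowest and highest means were 1.33 and 222.7. Means under 5 reads were found for 1091 circles (54.9%), which together held 20.9% of the reads. At the other end, 386 circles (19.4%) had a mean of at least 10 reads and held 57.7% of the reads, and 37 had a mean of at least 50. Ranked by mean CPM, the first 275 circles (13.8%) were needed to reach 50 percent of the numbered reads and the first 1347 to reach 90 percent. The distribution was thus broad, with no single circle holding more than 1.35% of the mean CPM of the numbered set.

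The most abundant numbered circle was mmu_circ_0001311. It had 188, 216 and 259 reads in WT replicates 1 to 3 and 197, 237 and 239 reads in APP/PS1 replicates 1 to 3. In CPM this was 13088 ± 864 (SD, n = 3) in WT and 11823 ± 1583 in APP/PS1, 49.8 times the median circle, and it was above the next circle in 6 of 6 libraries. The 3 WT and 3 APP/PS1 values overlapped, and its log2 fold change by edgeR was -0.14 (95% interval -0.44 to 0.16).

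mmu_circ_0000684 came next, with 138, 176 and 175 reads in WT and 189, 163 and 147 in APP/PS1, or 9666 ± 338 and 8744 ± 1074 CPM. It was followed by mmu_circ_0000489, with 114, 127 and 164 reads in WT and 153, 152 and 173 in APP/PS1, or 7985 ± 800 and 8374 ± 543 CPM. mmu_circ_0000057 had 131, 159 and 140 reads in WT and 126, 144 and 168 in APP/PS1, or 8563 ± 1015 and 7681 ± 1131 CPM. In each of these 3 circles the labels overlapped. The mean CPM differences between the neighbours from the second to the tenth place in the order were all smaller than the SD of that difference over the 6 libraries, so only the first place stood apart from its neighbour beyond this spread.

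mmu_circ_0001605 was the member of the top 10 that differed most between the labels. It had 102, 101 and 103 reads in WT and 191, 135 and 137 in APP/PS1, which is 6136 ± 1002 and 8090 ± 1456 CPM. The highest WT library, replicate 1 at 7287 CPM, lay above the lowest APP/PS1 library, replicate 3 at 7044 CPM, so the groups overlapped. The log2 fold change was 0.41 (95% interval 0.03 to 0.79) with an adjusted p = 0.831 by edgeR's quasi-likelihood test with Benjamini-Hochberg adjustment, and an unadjusted p of 0.0334.

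The other 5 of the 10 most abundant circles were close in level. mmu_circ_0000807 had 116, 103 and 140 reads in WT against 146, 126 and 128 in APP/PS1. mmu_circ_0001797 had 89, 148 and 135 against 131, 112 and 139, and mmu_circ_0000411 had 103, 114 and 145 against 114, 113 and 137. mmu_circ_0000349 had 66, 131 and 111 against 121, 131 and 88, and mmu_circ_0001396 had 72, 102 and 84 against 92, 123 and 114. Their WT and APP/PS1 libraries overlapped in all 5, with log2 fold changes of -0.02, -0.12, -0.16, 0.00048 and 0.19 in the same order.

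**Figure D1:**
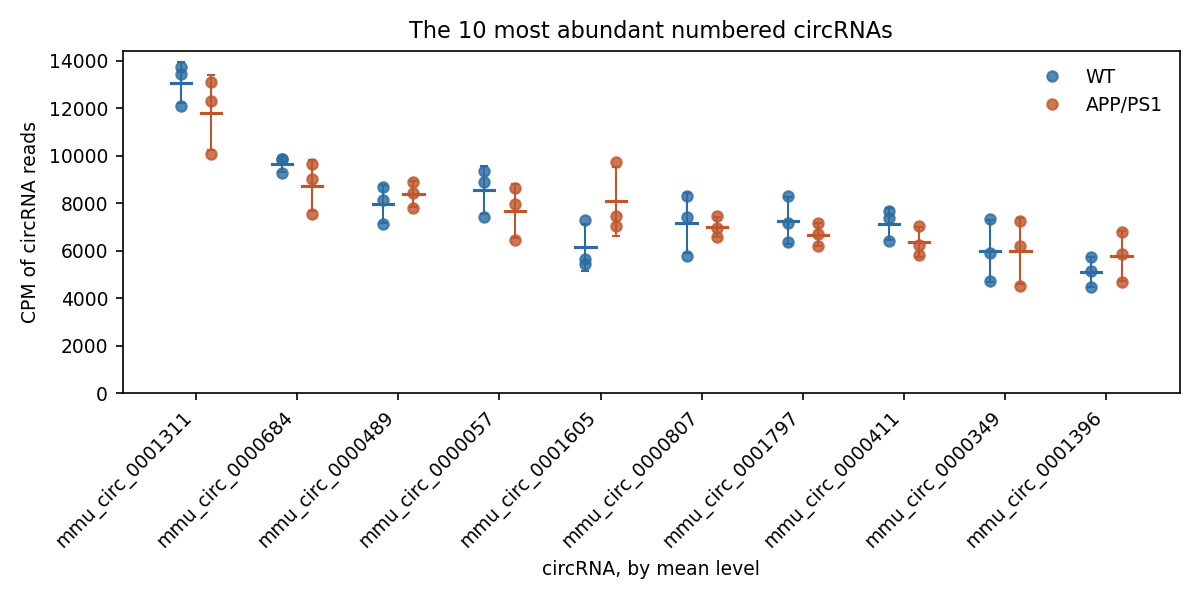
Level of the 10 most abundant numbered circRNAs in CPM of circRNA reads (vertical axis), ordered by mean level (horizontal axis); each point is 1 library, blue for WT and orange for APP/PS1, with the mean as a short line and the SD over 3 libraries as an error bar. mmu_circ_0001311 stands above the rest, and the libraries of the labels overlap in all 10 circles.

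The most abundant circles were ranked by mean CPM over all 6 libraries. Between 9 and 10 of the 10 most abundant circles were also among the 10 highest in each single library. Between 79 and 88 of the 100 most abundant were among its 100 highest. Each library helped to set the ranking it is compared with, so this overlap is a description and no test of stability. The 10 circles together took 8.76%, 8.41% and 8.39% of the numbered reads in WT replicates 1 to 3 and 8.05%, 8.59% and 8.24% in APP/PS1 replicates 1 to 3. For WT replicate 1 the exact 95% interval was 8.27 to 9.26, and for APP/PS1 replicate 1, the lowest, it was 7.65 to 8.45. The labels overlapped, at 8.52% ± 0.205 (SD, n = 3) against 8.29% ± 0.277 (exact two-sided permutation p = 0.4). The 100 most abundant took 31.9% ± 0.875 in WT and 31.9% ± 0.500 in APP/PS1 (exact two-sided permutation p = 0.9).

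Detection was counted as at least 1 read. Of the 1989 numbered circles, 1313 (66.0%) were read in all 6 libraries and held 87.5% of the numbered reads. A further 427 were read in 5 libraries, 166 in 4, 66 in 3, 15 in 2 and 2 in a single library. The circles missing from at least 1 library were low ones: those read in 5 libraries had a median mean level of 3.17 reads, against 6.33 for those read in 6, and none of them exceeded a mean of 11.0. Every circle was read somewhere, since the deposited tables hold no circle under 8 reads in all.

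**Figure D2:**
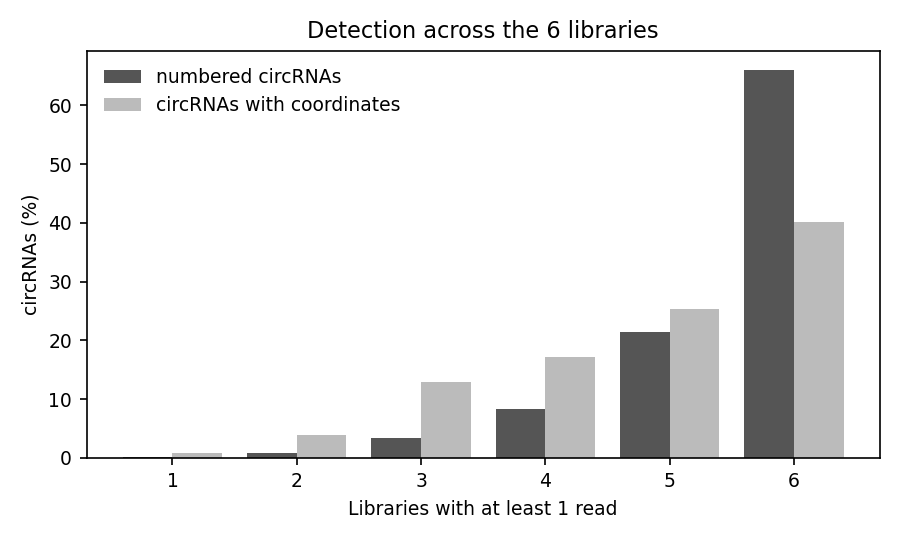
Share of circRNAs in percent (vertical axis) by the number of libraries with at least 1 read (horizontal axis), for the 1989 numbered circRNAs (dark bars) and the 257 circRNAs with coordinates (light bars). Of the numbered circles 66.0% were read in all 6 libraries, against 40.1% of those with coordinates.

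Per library, 1773, 1801 and 1846 numbered circles were detected in WT replicates 1 to 3, and 1830, 1828 and 1829 in APP/PS1 replicates 1 to 3. The labels overlapped (1807 ± 36.8 and 1829 ± 1.0, SD, n = 3, exact two-sided permutation p = 0.4), with WT replicate 1, the library of fewest reads, at the bottom. The difference of 22.3 circles was 5.5 without WT replicate 1 and 42 without WT replicate 3. Counted at 2 reads or more, the numbers were 1561, 1614 and 1672 in WT and 1683, 1674 and 1676 in APP/PS1, which did not overlap (difference 62, exact two-sided permutation p = 0.1, which is as low as 3 against 3 can reach). At a common depth of 12777 numbered reads, the expected number detected was 1773, 1748 and 1781 in WT and 1761, 1776 and 1764 in APP/PS1 (exact two-sided permutation p = 1.0). The label means were then 1767 ± 16.9 (SD, n = 3) in WT and 1767 ± 7.76 in APP/PS1. Counted at 2 reads or more at that depth, they were 1531 ± 27.3 and 1527 ± 11.6, and the labels overlapped (exact two-sided permutation p = 0.8). The number at 0 was 216, 188 and 143 in WT replicates 1 to 3 and 159, 161 and 160 in APP/PS1 replicates 1 to 3. Given each circle's total over its label and the depth of each library, counting error alone would have left 138, 89.5 and 80.9 circles at 0 in WT and 81.1, 93.2 and 82.1 in APP/PS1. More circles were thus missing from each of the 6 libraries than sampling of reads would leave.

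The spread among replicates was larger than counting error gives. The measure is the chi-square per degree of freedom among the 3 libraries of a label, which is 1 where libraries of a label differ by read sampling alone. Over all numbered circles it was 1.97. It was 1.91 for circles with a mean under 3 reads, 1.91 from 3 to 5 reads, 1.90 from 5 to 10, 2.05 from 10 to 20, 2.54 from 20 to 50 and 2.64 at 50 reads or more. The ratio, which is 1 by counting alone, thus ran from 1.90 to 2.05 in circles under 20 reads and was larger in those above. Relative to level the spread was wider in the rarest circles. In those with a mean under 3 reads the median coefficient of variation within a label was 88.3%, where counting at their median of 2.5 reads gives 63.2%. In the 37 circles with a mean of at least 50 reads the median coefficient of variation within a label was 15.6%, where counting at their median of 71.0 reads gives 11.9%. Fitted to all numbered circles, edgeR's common dispersion was 0.147, a biological coefficient of variation of 38.3%, and for those with a mean of at least 10 reads it was 0.0586, or 24.2%.

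The circles that varied most among replicates, of those with a mean of at least 10 reads, were spread over both labels. mmu_circ_0006208 had 14, 18 and 22 reads in WT but 2, 7 and 37 in APP/PS1, an index of 22.5 among the APP/PS1 libraries. mmu_circ_0000084 had 11, 12 and 48 reads in WT and 28, 21 and 32 in APP/PS1, with the high value in WT replicate 3 and an index of 14.1 among the WT libraries. mmu_circ_0000250 had 14, 11 and 15 reads in WT and 1, 9 and 27 in APP/PS1 (index 13.9 among APP/PS1). mmu_circ_0000011 had 1, 15 and 36 reads in WT and 12, 16 and 2 in APP/PS1 (index 13.7 among WT). APP/PS1 replicate 3 held the high value in both circles that varied within APP/PS1, and WT replicate 3 in both that varied within WT. These 4 were chosen for their spread, and no test is given.

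Pairs of libraries differed slightly more across labels than within a label. The same index over numbered circles ran from 1.84 to 1.99 for pairs within a label and from 1.94 to 2.15 for pairs across labels. Across labels, WT replicate 1 with APP/PS1 replicates 2 and 3 (1.97 and 1.94) fell in the within-label range. So did WT replicate 2 with APP/PS1 replicate 2 (1.96), and the remaining pairs lay above it. The rarest circles, listed only if 1 label held more of their reads, are included, and their part in this was not tested. As a description over 1989 circles that share libraries, the Spearman correlation of reads was 0.488 to 0.572 within and 0.469 to 0.543 across labels. No pair came near an index of 1, the value for libraries that differ by read sampling alone. The index cannot tell separate preparations of the same RNA from separate animals.

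**Figure D3:**
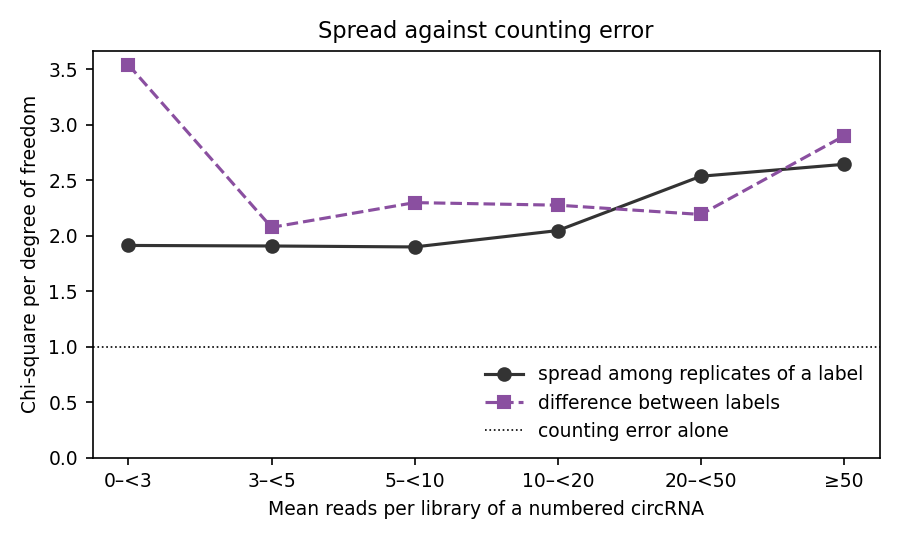
Chi-square per degree of freedom (vertical axis) of numbered circRNAs by mean reads per library (horizontal axis, bins): among the 3 libraries of a label (solid line, circles) and between the labels (dashed line, squares), with counting error alone at the dotted line. The spread among replicates lies between 1.90 and 2.64, and the difference between labels is of similar size except in the bin under 3 reads, where it is 3.54.

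The lowest totals in the deposited tables bear on the comparison of the rarest circles between labels. In each numbered circle the label with more reads held at least 7 reads over its 3 libraries, while the other label could be at 0. Of the 121 circles with at most 12 reads in all, none had fewer than 7 in the larger label. A circle this rare was therefore listed only if 1 label held more of its reads than the other. The chi-square between labels averaged 3.54 for circles with a mean under 3 reads, against 2.08, 2.30, 2.28, 2.19 and 2.90 in the higher bins, where the spread among replicates was 1.90 to 2.64. At 0 in all 3 WT libraries were 16 of the 1989 numbered circles, with 9 to 15 reads over the APP/PS1 libraries. At 0 in all 3 APP/PS1 libraries were 13 of them, with 8 to 12 reads over the WT libraries. Among the 257 circles with coordinates, 7 were at 0 in all 3 WT libraries and 8 in all 3 APP/PS1 libraries. Since these circles are in the tables only through the label in which they were read, their numbers are given as a description.

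Between the labels, no numbered circle passed the threshold. Of the 1989 circles, 1912 had at least 2 reads in at least 3 libraries and were tested with edgeR together with the 220 circles with coordinates that passed. At an adjusted p under 0.05, 0 were higher and 0 lower in APP/PS1, and the lowest adjusted p was 0.662. Over all 2132 circRNAs tested the rates were 0.0469% higher and 0% lower. At an unadjusted p under 0.05 by edgeR there were 55 higher and 42 lower numbered circles, 2.88% and 2.20% of those tested, against 3.05% and 2.25% over all circRNAs. DESeq2 also called 0. In the 4 libraries without WT replicate 3 and APP/PS1 replicate 2, 1587 numbered circles were tested by edgeR and 0 passed, with 49 at an unadjusted p under 0.05.

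The fold changes of the numbered circles were centred near 0. The median log2 fold change was 0.03, with 972 positive and 940 negative, beside a median of 0.00126 over all circRNAs tested. The middle 50 percent of the circles lay between -0.54 and 0.57. Libraries did not overlap between labels in 122 circles that were higher (6.38%) and 118 that were lower (6.17%), close to the 6.52% and 6.57% over all circRNAs. The share without overlap was 14.3% for circles with a mean under 5 reads. It was 11.9% from 5 to 10 reads and 8.81% at 10 reads or more. The rarest circles were listed only if a label held more of their reads than the other. They could also pass the filter through that label alone. The part of this selection in the higher share at low reads was not tested, so these shares are given as a description.

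**Figure D4:**
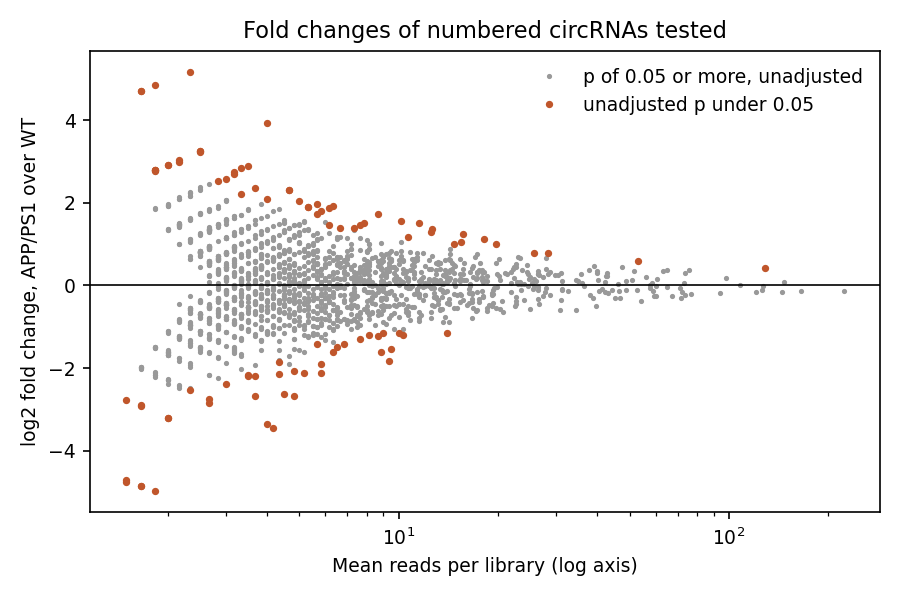
log2 fold change of APP/PS1 over WT by edgeR (vertical axis) against mean reads per library (horizontal axis, log scale) for the 1912 numbered circRNAs tested; orange points have an unadjusted p under 0.05. Large fold changes are found among circles of few reads, and 0 circles passed after adjustment.

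The circles of smallest p were rare. mmu_circ_0005762 had 0, 1 and 0 reads in WT and 13, 2 and 8 in APP/PS1. mmu_circ_0003356 was at 0 in all 3 WT libraries and had 8, 3 and 3 reads in APP/PS1. On the lower side, mmu_circ_0005207 had 6, 10 and 7 reads in WT and 2, 0 and 0 in APP/PS1, and mmu_circ_0006952 had 2, 4 and 5 reads in WT and 0 in all 3 APP/PS1 libraries. None of the 4 passed the threshold. The label in which it was low gave each of them at most 1 library with 2 reads, so each entered the test through the label in which it was high and had to differ. Their reads are given as a description, with no fold or p.

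The 386 circles with a mean of at least 10 reads gave a more precise comparison. Their log2 fold changes had a median of 0.07, and the central 90 percent lay between -0.63 and 0.74. An unadjusted p under 0.05 by edgeR was found for 14 higher and 3 lower circles. Together these were 4.40% of the 386, beside 5.07% of all numbered circles tested. Of these 17 circles 82.4% were higher, where all numbered circles at that p were 55 higher and 42 lower. Over all circRNAs tested, 3.05% were higher and 2.25% lower at that p. The lowest adjusted p was 0.662. Without WT replicate 1, the library of fewest reads, 10 of the 386 were higher and 7 lower at that unadjusted p by edgeR. Without APP/PS1 replicate 3 the counts were 12 and 9. With any other single library left out, 11 to 13 were higher and 1 to 5 lower. In the 4 libraries without WT replicate 3 and APP/PS1 replicate 2 the counts were 12 and 3, and by DESeq2 13 and 1. Higher circles were more numerous in each of these settings, but the excess moved with single libraries and was not tested. The absolute log2 fold change was under 1 in 372 of the 386, and in 126 the 95% interval lay wholly within that limit. For the 37 circles with a mean of at least 50 reads the fold changes ran from -0.39 to 0.59, 16 positive and 21 negative, with libraries that did not overlap in 2 of them, where 6.52% of all circRNAs tested were higher and 6.57% lower without overlap.

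The precision of a fold change was lower for rarer circles. The median standard error of the log2 fold change was 1.20 for circles with a mean under 3 reads, 0.97 from 3 to 5, 0.67 from 5 to 10, 0.47 from 10 to 20, 0.36 from 20 to 50 and 0.23 at 50 reads or more. Circles at 0 in all 3 libraries of a label gave no finite estimate and are left out of these medians. Counts were also simulated from these libraries for all 2132 circRNAs tested, numbered and with coordinates together, and 2000 of them passed the filter. There edgeR found 6% of the 100 set to differ 2-fold and 36% of the 100 set to differ 4-fold, and made 0 false calls. Changed circRNAs that failed the filter count as not found. In this mixed set a difference of that size was thus mostly not detected with 3 libraries per label at this depth. The counts were drawn with edgeR's negative binomial dispersion, without the further spread per circRNA that the quasi-likelihood test fits. Whether the simulated spread matches that of the data was not tested. One read was worth 51.1 to 71.4 CPM, and a floor of 3 reads 153 to 214 CPM, where the median circle had 250.1 CPM.

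The database numbers ran from 2 to 16444, and level was lower at higher numbers. Sorted into 4 groups of equal size, the median mean level was 7.33 reads for numbers up to 1294, 5.17 for 1295 to 5173, 3.67 for 5178 to 10364 and 3.67 for 10383 to 16444. The same groups held 41.0%, 27.9%, 15.8% and 15.2% of the numbered reads, and 80.5%, 71.6%, 55.5% and 56.3% of their circles were read in all 6 libraries. Of the 10 most abundant circles 6 lay in the first group and 4 in the second, and 0 in the others.

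The change lay near number 2000, a boundary chosen after the values were seen and therefore described without a test. Below it 751 circles occupied 37.9% of the numbers from 2 to 1983, and above it 1238 circles occupied 8.57% of the numbers from 2007 to 16444. The median mean level was 7.33 reads below and 3.67 above, and 86 of the 100 most abundant circles lay below. The most abundant circle above it, mmu_circ_0006628, had a mean of 51.0 reads. Circles below 2000 took 60.6%, 61.3% and 61.1% of the numbered reads in WT replicates 1 to 3 and 61.1%, 61.0% and 60.8% in APP/PS1 replicates 1 to 3. This share was nearly the same in every library, at 61.0% ± 0.382 (SD, n = 3) in WT and 61.0% ± 0.152 in APP/PS1. The spread among replicates was alike on both sides, 1.97 and 1.97, and the median log2 fold change was 0.04 below and 0.03 above.

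**Figure D5:**
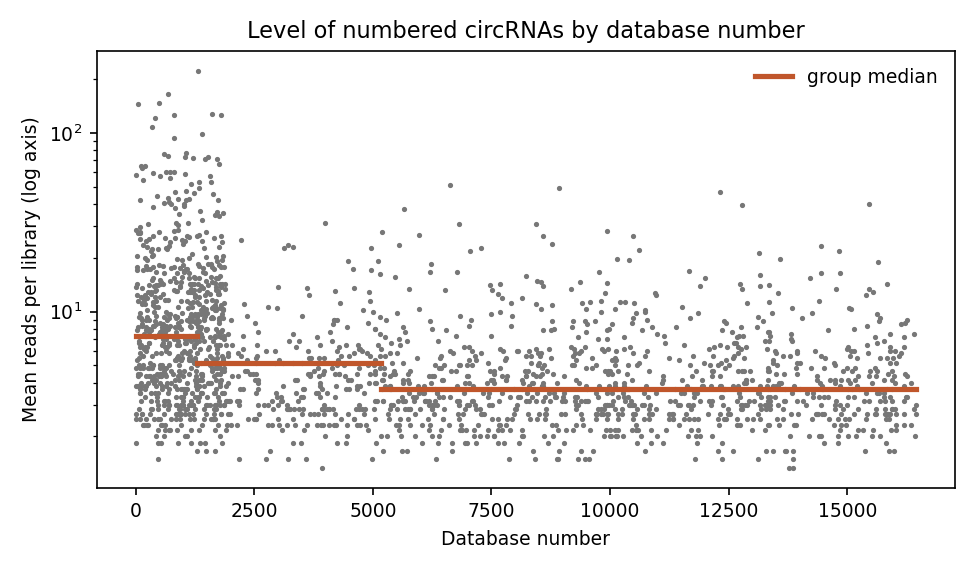
Mean reads per library (vertical axis, log scale) of each of the 1989 numbered circRNAs against its database number (horizontal axis); orange lines are the medians of 4 groups of equal size. Points are denser and reach higher below a number of about 2000, and the group medians are 7.33, 5.17, 3.67 and 3.67 reads.

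Against the 257 circles with coordinates, numbered circles were read more deeply. The median was 4 against 3 reads in WT replicate 1, 5 against 3 in WT replicate 2 and 5 against 4 in WT replicate 3, and 5 against 3 in each APP/PS1 library. The mean difference of medians was 1.67 reads, with the same sign in 6 of 6 libraries (exact two-sided sign-flip permutation p = 0.031, the smallest that 6 libraries can give). The share of circles at 0 was 7.19% to 10.9% for numbered and 18.7% to 21.4% for coordinate circles, a mean difference of -11.0 percentage points (exact two-sided sign-flip permutation p = 0.031, lower in 6 of 6 libraries). All libraries measured the same circles, so this test speaks for the libraries and not for other circles. The index of spread among replicates was 1.97 for numbered and 2.49 for coordinate circles, and the common dispersion was 0.147 and 0.389, differences that were not tested.

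Genes linked to the formation, export or turnover of circles were looked up in the gene tables of the same libraries. Of a list of 22 such genes, 20 were tested with limma on log2(FPKM + 1), and 0 were higher and 0 lower at an adjusted p under 0.05, where 0.0219% of all 13700 genes passed. At an unadjusted p under 0.05 there was 1 of the list, where 6.69% of all genes were found. Their median log2 fold change was -0.02, with 6 positive and 14 negative, beside a median of -0.00089 over all genes. The roles of these genes differ, so their signs together give no direction of effect on circles.

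Adarb1, which encodes the editing enzyme ADAR2 that acts on double-stranded RNA, had 14.6, 16.0 and 14.0 FPKM in WT and 9.27, 9.77 and 9.19 in APP/PS1, without overlap (log2 fold change -0.61, limma adjusted p = 0.0723). It passed without WT replicate 3 (adjusted p = 0.0492) or without APP/PS1 replicate 2 (adjusted p = 0.0478), the libraries that went against their labels by App, but not with both left out (0.0692); over all alternatives the adjusted p ranged from 0.0478 to 0.261. Qk, whose protein Quaking promotes circle formation, had 44.5, 39.9 and 50.5 FPKM in WT and 54.5, 48.0 and 51.9 in APP/PS1 (limma adjusted p = 0.781). Ddx39b, an RNA helicase tied to nuclear export of circles, had 24.1 ± 1.01 FPKM (SD, n = 3) in WT and 22.0 ± 1.08 in APP/PS1 (limma adjusted p = 0.781), and Hnrnpl, a splicing regulator, had 26.3 ± 0.881 and 24.6 ± 1.02 FPKM (limma adjusted p = 0.832).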

How the data were processed

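Total RNA of hippocampus was sequenced in 6 libraries, 3 per label, built with an Illumina TruSeq kit, per the labels' protocols. The circRNA values deposited by the authors are raw read counts, whole numbers whose totals vary by library. Which program called the circles is not given in the sources. The gene values deposited by the authors were read as FPKM from their decimals and totals, since no header names the unit. The submitters' processing notes list FastQC, HISAT2, StringTie and mm9, with no versions or roles.

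Counts of all 2246 circRNAs were fitted with edgeR 4.0.16 (robust quasi-likelihood test, TMM factors, R 4.3.3) after a filter of at least 2 reads in at least 3 libraries. Benjamini-Hochberg adjustment ran over all 2132 circRNAs tested, with a threshold of 0.05. Standard errors were taken from the fold change and its F value. For genes, values of 1 FPKM or more in 3 or more libraries were required before limma 3.58.1 (trend, robust) was run on log2(FPKM + 1), a scale that understates changes of low genes. Single values per library were compared with exact two-sided permutation tests. Detection at a common depth is a hypergeometric expectation. The edgeR and limma steps were tested on simulated data. Per library, 13998 to 19584 circRNA reads give the precision stated with each value, and the depth behind FPKM is unknown.

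Named circles were the 10 highest by mean CPM, the 2 of smallest p in each direction and the 4 of largest spread among replicates with a mean of at least 10 reads. Of the gene list the 4 of smallest p are named, with App and Prnp as a check of the labels. Members and lists were chosen with earlier results of these data known. Alternatives were DESeq2 1.42.0, other scalings, filters, pseudocount and threshold, the replicate number as a block, each library left out and 4 libraries.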

Additional observations from a re-analysis of the deposited data

How the results depend on the processing

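Over 14 alternatives to the main edgeR fit the count of numbered circles past the threshold was 0 in both directions. At an adjusted p under 0.1 it was also 0. The lowest adjusted p by edgeR or DESeq2 lay between 0.211 and 0.946. At an unadjusted p under 0.05 there were 49 to 115 circles, but the number tested also differed, from 1065 to 1989. The 49 were of 1587 tested in the 4 libraries, and the 115 of 1989 tested without the filter. In the main edgeR fit such a p was found for 97 of 1912 (5.07%), beside 3.05% higher and 2.25% lower over all circRNAs tested. The median log2 fold change of 0.03 ranged from -0.022 to 0.061 when each library was left out. The label difference in circles detected per library, 22.3, ranged from 5.5 to 42 with a library left out, and was 42.5 in the 4 libraries and 62 where detection needed 2 reads. The label difference in circles detected at a common depth, -0.532, ranged from -10.0 to 6.15 with a library left out and was 1.72 in the 4 libraries without WT replicate 3 and APP/PS1 replicate 2. The label difference in the share of the 100 most abundant, -0.0394 percentage points, ranged from -0.541 to 0.444 with a library left out. The cause of these reversals was not tested. The spread among replicates was 2.23 for circles with a mean of at least 10 reads, against 1.97 over all.

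With 5 libraries the sign-flip test cannot go below 0.0625, so the comparison of numbered with coordinate circles no longer passed with any library left out; the difference of medians was then 1.6 to 1.8 reads and that of shares at 0 was -11.5 to -10.5 percentage points. Of the circle formation and turnover genes 0 to 1 passed with a library left out. With the replicate number as a block, 0 of 1912 numbered circles tested by edgeR passed (lowest adjusted p = 0.933). An unadjusted p under 0.05 was found for 74 of the 1912, where the main fit had 97 of 1912. The median log2 fold change with the block was 0.03. Deviations from the label means correlated at 0.046, 0.119 and -0.029 between libraries of the same number over 386 circles. Between libraries of different numbers they correlated at -0.140 to 0.090. The highest value was that of WT and APP/PS1 replicate 2, but not every library correlated best with its own number. Correlations this weak cannot decide whether a shared number marks a pairing.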
